A study of Mus musculus with 9 samples.

Results

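The genes described here encode the AMP-activated protein kinase (AMPK) and the kinases that switch it on. They are the 7 AMPK subunit genes (Prkaa1, Prkaa2, Prkab1, Prkab2, Prkag1, Prkag2 and Prkag3) and the 2 upstream kinase genes Stk11 and Camkk2, taken by name from a list that was drawn up with earlier results of these data known. All 9 were found among the 55487 genes in the tables, and all 9 were among the 16140 genes that passed the filter on low values and were tested. The study held 1 hindlimb of C57BL/6 male mice still in a thermoplastic bandage for 7 days and read RNA from the gastrocnemius, the main calf muscle. Dis is muscle from the immobilized leg, Con is muscle from the free leg of mice whose other leg was immobilized, and NC is muscle from naive mice, with 3 samples in each group. The series text gives an age of 8 weeks, and the methods add a further period of housing before the bandage, so the mice were older when immobilized. No transgene was used, and no drug is named in the sample labels. By the methods, mice were under isoflurane while the bandage was put on and taken off. No such step is described for NC mice before the end of the study. In comparisons with NC, this anesthesia and the bandage cannot be told apart. Con shares its animals with Dis, so a change that reaches the whole animal is in both. No label says which Con sample and which Dis sample came from 1 mouse, and the p-values below measure the spread between samples as deposited.

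AMPK is the energy gauge of the cell. It is built from a catalytic alpha subunit, a beta subunit that holds the complex together and binds glycogen, and a gamma subunit that senses AMP, ADP and ATP. When ATP runs low, AMPK turns on glucose uptake, fat oxidation and autophagy and turns off fat, glycogen and protein synthesis. The kinase becomes fully active only when a threonine in the activation loop of the alpha subunit is phosphorylated, by LKB1 (encoded by Stk11) in a complex with STRAD and MO25, or by the calcium-dependent kinase CaMKK2 (encoded by Camkk2). Skeletal muscle uses the alpha2 and beta2 isoforms above all, and the gamma3 isoform is largely restricted to fast glycolytic muscle. Activity is set by phosphorylation and by nucleotides, neither of which RNA-seq measures.

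The 2 alpha genes are shown by the stretch of coding sequence that carries the activating threonine, because every value below depends on reads being told apart between isoforms. The segment covers 27 codons (81 bases) around the activation loop in GENCODE M21 transcripts, 5′ to 3′, with the threonine codon in capitals. It spans codons 168 to 194 in Prkaa1 and codons 157 to 183 in Prkaa2, and the threonine is codon 183 of 559 in Prkaa1 and codon 172 of 552 in Prkaa2.
Prkaa1: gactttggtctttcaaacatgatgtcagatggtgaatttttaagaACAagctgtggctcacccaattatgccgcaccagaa
Prkaa2: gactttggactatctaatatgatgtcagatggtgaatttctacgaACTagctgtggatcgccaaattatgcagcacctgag
The 2 segments differ at 13 bases and at 0 encoded residues. Over the whole transcripts, the longest stretch of identical sequence between Prkaa1 and Prkaa2 was 35 bases. It was 23 bases between Prkab1 and Prkab2, and 11 to 17 bases between the gamma genes. Prkag3 alone shared 75-base windows with genes outside the family. All 8 genes that overlap a member lie on the opposite strand, and none of them exceeded 2.34 TPM (Cbarp, which shares 232 bases with Stk11). Whether the authors counted reads by strand is not given in the sources used here.

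In these muscles the AMPK transcripts belonged mostly to the alpha2, beta2 and gamma3 genes. Levels are in TPM, which gives transcripts per length and as a part of a fixed total in each sample, so genes can be set beside each other. Over the 9 samples Prkag3 averaged 177 TPM and Prkab2 171 TPM, and these neighbours could not be ordered, since their ranges overlapped and Prkag3 was above Prkab2 in 6 of 9 samples. Stk11 followed with 112 TPM, then Prkaa2 with 57.5 TPM, Prkag1 with 40.9 TPM and Prkab1 with 12.7 TPM. Each of these 4 lay above the next gene in all 9 samples. The lowest were Prkag2 (7.31 TPM), Prkaa1 (5.40 TPM) and Camkk2 (3.16 TPM), which overlapped in range, each above the next in 8 of 9 samples. The LKB1 gene was thus read at a far higher level than the CaMKK2 gene in every sample. Camkk2 varied most, with a highest value 5.91 times its lowest, and Prkag1 varied least (1.15 times).

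**Figure D1:**
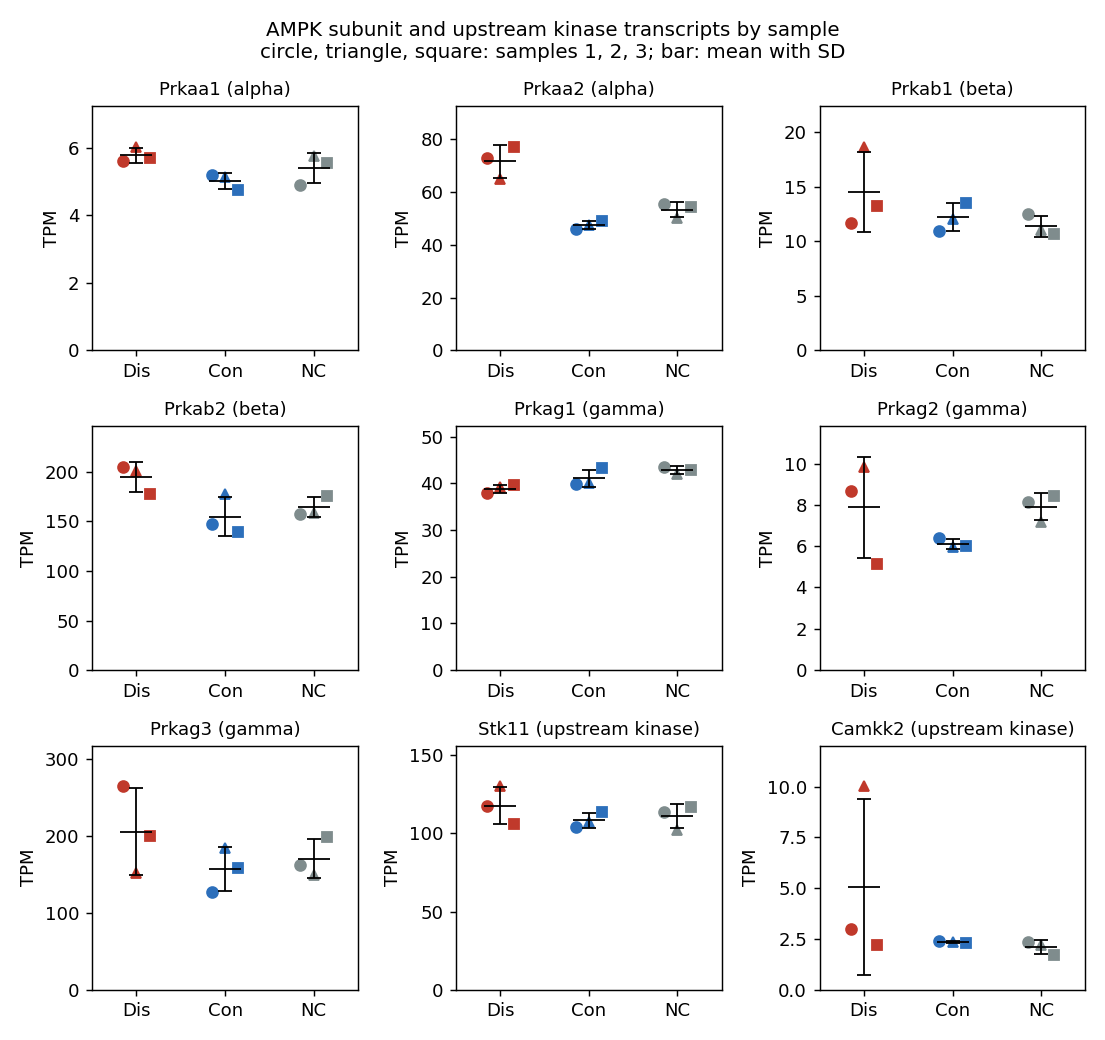
Level of each of the 9 genes in TPM (vertical axes from 0, a different scale for each gene) in Dis, Con and NC. Circle, triangle and square are samples 1, 2 and 3 of a group, and the bar gives the mean with the SD of 3 samples. Prkaa2 in Dis (64.9 to 77.1 TPM) lies above all 6 control samples (46.0 to 55.5 TPM), and Camkk2 is high in Dis sample 2 alone (10.02 TPM).

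The comparison of Dis with Con asks how the immobilized muscle differs from the free one. The catalytic subunit gene Prkaa2 rose in Dis, and it was the 1 member of 9 that passed the test. At an adjusted p below 0.05 in limma, 14.1% of all tested genes were called higher and 3.08% lower in Dis than in Con, so a count of 1 higher and 0 lower among 9 is close to the background. Higher calls outnumbered lower ones across the whole table (2273 against 497), and over all tested genes the median log2 fold change stood at 0.20 in Dis over Con and 0.21 in Dis over NC. TPM is a share of a fixed total, so each member has to be read against that shift. After the samples were rescaled by median-ratio size factors (1.05 to 1.23 in Dis, 0.937 to 0.983 in Con and 0.934 to 0.956 in NC), both medians were 0.01, and the calls for Dis over Con were 431 higher (2.67% of tested genes) and 750 lower (4.65%), with 0 members among them. The median over the 9 members was 0.30 in Dis over Con and 0.24 in Dis over NC. In bulk muscle, a lower or higher level in the cells and fewer or more of the cells that make it cannot be told apart.

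Dis sample 2 stood apart from the other samples. On the first principal component (40.2% of the variance) it lay at 68.1, the other Dis samples at 12.7 and 19.6, and the controls between -21.5 and -7.95. It had the lowest share of mitochondrially encoded TPM (13.8%, against 19.3 to 23.4% in the others). Among marker genes of the labelled tissue, the 6 fast-fibre markers summed to 107441 to 114551 TPM in Dis, 87196 to 98213 TPM in Con and 82849 to 97292 TPM in NC, so muscle fibre RNA was read in all samples.

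Prkaa2, the alpha2 catalytic subunit (ENSMUSG00000028518, chr4:105029874-105109890, minus strand in GRCm38), had 72.9, 64.9 and 77.1 TPM in Dis, against 46.0, 47.7 and 49.0 TPM in Con and 55.5, 50.2 and 54.3 TPM in NC. Every Dis sample was above every control sample, and Con was below NC with no overlap. The means were 71.6 ± 6.22 TPM in Dis, 47.6 ± 1.51 TPM in Con and 53.3 ± 2.77 TPM in NC (SD, n = 3 each). The log2 fold change of Dis over Con was 0.58 (SE 0.09, 95% interval 0.38 to 0.78, limma adjusted p = 0.00599), with a ratio of mean TPM of 1.51. In Dis over NC, where 13.6% of all tested genes were called higher and 2.99% lower, it was 0.42 (SE 0.09, interval 0.22 to 0.62, limma adjusted p = 0.0152), with a ratio of mean TPM of 1.34. The call depended on the scale. After median-ratio scaling Prkaa2 stood at 64.2 ± 9.80 in Dis, 49.7 ± 1.19 in Con and 56.4 ± 3.54 in NC, and the log2 fold changes were 0.35 (limma adjusted p = 0.0991) over Con and 0.18 (limma adjusted p = 0.395) over NC. On that scale Dis and Con still did not overlap, while Dis and NC did. On the deposited scale, leaving out NC sample 2 also ended the call against NC (0.38, limma adjusted p = 0.0553). With Dis sample 2 left out and the same scaling, the log2 fold change over Con was 0.49 (limma adjusted p = 0.0120) and over NC 0.31 (limma adjusted p = 0.0532).

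Prkaa1, the alpha1 catalytic subunit (ENSMUSG00000050697, chr15:5143861-5181899, plus strand), is the minor catalytic gene of this muscle. It had 5.60, 6.02 and 5.69 TPM in Dis, against 5.18, 5.12 and 4.74 TPM in Con and 4.90, 5.76 and 5.55 TPM in NC. Dis was above Con in every sample and overlapped NC. The log2 fold change of Dis over Con was 0.19 (SE 0.11, limma adjusted p = 0.264), slightly below the shift of all genes (0.20), and it was -0.025 after median-ratio scaling.

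Within the alpha class, Prkaa2 made up a slightly larger part in Dis. Its share of alpha TPM does not move with the scaling of a sample. The share was 92.9, 91.5 and 93.1% in Dis, against 89.9, 90.3 and 91.2% in Con and 91.9, 89.7 and 90.7% in NC. Dis lay above Con without overlap and overlapped NC. The difference of means was 2.04 percentage points between Dis and Con (exact permutation test, two-sided p = 0.1, the smallest that 3 against 3 allow). It was 1.73 points between Dis and NC (exact p = 0.2) and -0.32 points between Con and NC (exact p = 0.7). Summed alpha TPM was 77.4 ± 6.03 in Dis, 52.6 ± 1.30 in Con and 58.7 ± 2.41 in NC (SD, n = 3 each).

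**Figure D2:**
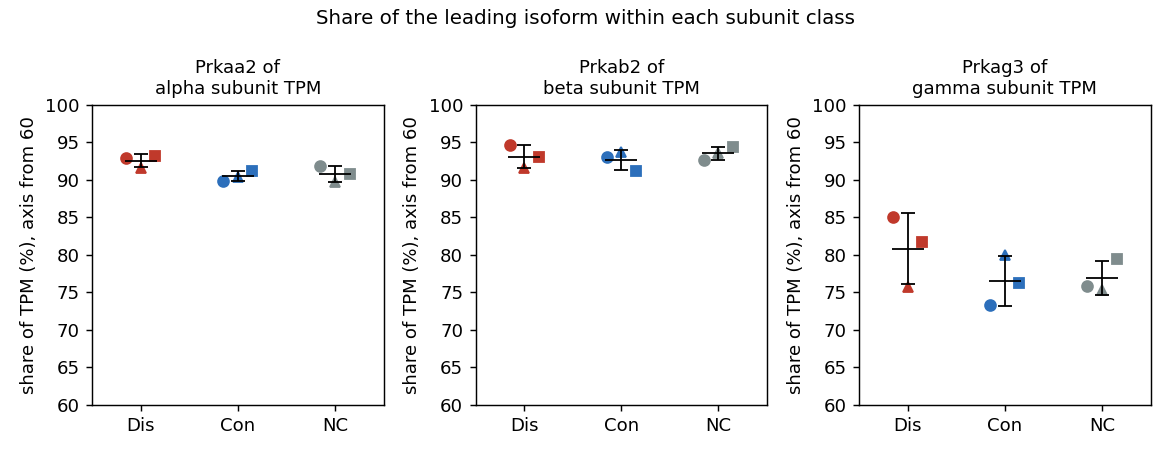
Share of the leading isoform gene in the summed TPM of its subunit class, in percent (vertical axes start at 60), for alpha (Prkaa2), beta (Prkab2) and gamma (Prkag3). Points are the samples of Dis, Con and NC, and bars the mean with SD of 3 samples. The alpha panel shows Dis at 91.5 to 93.1% and Con at 89.9 to 91.2%, and in the beta and gamma panels all groups overlap.

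The promoters of the 2 alpha genes are given as a description of their sequence. They are the 250 bases before the RefSeq start in GRCm38.p6, on the strand of the gene, with matches to the GC box GGGCGG (either strand, the motif bound by Sp1-type factors) in capitals. The Prkaa1 promoter is chr15:5143611-5143860 on the plus strand and the Prkaa2 promoter chr4:105109899-105110148 on the minus strand.
Prkaa1: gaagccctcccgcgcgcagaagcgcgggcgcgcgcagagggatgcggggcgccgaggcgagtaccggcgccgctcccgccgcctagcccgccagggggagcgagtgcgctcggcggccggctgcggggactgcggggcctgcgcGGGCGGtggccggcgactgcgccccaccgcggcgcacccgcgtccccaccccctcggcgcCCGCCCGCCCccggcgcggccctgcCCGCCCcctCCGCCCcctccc
Prkaa2: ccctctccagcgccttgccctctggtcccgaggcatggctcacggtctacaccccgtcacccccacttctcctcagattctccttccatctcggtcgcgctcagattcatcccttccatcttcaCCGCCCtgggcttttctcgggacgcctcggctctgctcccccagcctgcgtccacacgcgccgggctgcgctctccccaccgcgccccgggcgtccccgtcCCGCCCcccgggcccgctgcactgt
Prkaa1 held 5 GC boxes in a window of 85.2% GC, with overlapping matches counted apart, and Prkaa2 held 2 in a window of 70.0% GC, at 126 and 25 bases before the start. A GC box occurred in 32.7% of the 32851 promoter windows of this length. Neither held the E-box CAGCTG, the ERR half-site AAGGTCA, the FoxO site GTAAACA or the TATA box TATAAA, which occurred in 13.0, 4.08, 3.17 and 12.4% of promoters. Promoters were found for all 9 members, and among them 1 E-box was in Prkag3 (40 bases before the start) and 1 ERR half-site in an inner promoter of Prkag2 (43 bases before that start). GC boxes were also in Prkab2 (5), Prkag1 (1), Camkk2 (1) and Prkag2 (2 in its outermost promoter and 1 in an inner one). Prkab1, Prkag3 and Stk11 held 0. Whether promoter sequence had a part in any level or call was not tested.

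Both beta genes had positive fold changes in Dis that did not pass the test. Prkab2, the beta2 scaffold subunit (ENSMUSG00000038205, chr3:97658193-97673812, plus strand), had 205, 201 and 178 TPM in Dis, against 147, 177 and 140 TPM in Con and 158, 159 and 176 TPM in NC. Each Dis sample was above each control sample, though the lowest Dis value and the highest Con value were nearly equal. Prkab2 had a log2 fold change of 0.33 over Con (SE 0.11, limma adjusted p = 0.0638) and 0.24 over NC (SE 0.11, limma adjusted p = 0.151). Without Con sample 2, the highest of Con, it was 0.44 over Con and passed (limma adjusted p = 0.0446). After median-ratio scaling the groups overlapped, and the value over NC was -0.0033.

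Prkab1, the beta1 subunit (ENSMUSG00000029513, chr5:116013586-116024508, minus strand), is more prominent in liver than in muscle. It had 11.7, 18.7 and 13.3 TPM in Dis, against 10.99, 12.1 and 13.6 TPM in Con and 12.5, 11.1 and 10.6 TPM in NC. Only Dis sample 2 exceeded the controls. Its log2 fold change over Con was 0.22 (SE 0.17, limma adjusted p = 0.383), and without Dis sample 2 it was 0.03. Prkab2 supplied 93.1 ± 1.56% of beta TPM in Dis, 92.6 ± 1.30% in Con and 93.5 ± 0.81% in NC (SD, n = 3 each), with exact permutation p-values between 0.5 and 0.8 for the 3 differences.

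Among the gamma genes, Prkag1 went against most of the other members. Prkag1, the widely expressed gamma1 subunit (ENSMUSG00000067713, chr15:98812797-98831521, minus strand), had 37.9, 39.1 and 39.5 TPM in Dis, against 39.9, 40.1 and 43.2 TPM in Con and 43.6, 42.0 and 42.9 TPM in NC. Every Dis sample was below every control sample. The log2 fold change was -0.08 over Con (SE 0.07, limma adjusted p = 0.484) and -0.14 over NC (SE 0.07, limma adjusted p = 0.213), so it did not pass on the deposited scale. After median-ratio scaling Prkag1 stood at 34.6 ± 2.40 in Dis, 43.0 ± 0.94 in Con and 45.3 ± 1.36 in NC, with log2 fold changes of -0.31 over Con (limma adjusted p = 0.0510) and -0.38 over NC (limma adjusted p = 0.0221). The call against NC also stood under quantile normalization (-0.36, limma adjusted p = 0.0305) and with median-ratio scaling without Dis sample 2 (-0.33, limma adjusted p = 0.0344). No other sample was left out on that scale. With TPM rescaled without mitochondrially encoded genes, Prkag1 did not pass against NC (-0.22, limma adjusted p = 0.0907). On the median-ratio scale 5.56% of all tested genes were called lower and 3.43% higher in Dis than in NC.

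Prkag3, the gamma3 subunit of fast fibres (ENSMUSG00000006542, chr1:74738922-74749221, minus strand), had 265, 152 and 200 TPM in Dis, against 127, 185 and 158 TPM in Con and 163, 149 and 199 TPM in NC. Dis sample 1 was the highest of all samples and Dis sample 2 among the lowest, so the groups overlapped. On the log2 scale the fold change was 0.37 over Con (SE 0.21, limma adjusted p = 0.243) and 0.25 over NC (SE 0.21, limma adjusted p = 0.431). Its share of gamma TPM was 80.8 ± 4.77% in Dis, 76.5 ± 3.36% in Con and 76.8 ± 2.27% in NC (SD, n = 3 each). The differences of Dis from Con (4.29 points) and from NC (3.96 points) each gave an exact permutation p = 0.3. Single Dis samples set their size, since without Dis sample 1 the differences were 2.16 and 1.84 points and without Dis sample 2 they were 6.87 and 6.55 points. Over Con, the log2 fold change of Prkag3 was likewise 0.17 without Dis sample 1 and 0.57 without Dis sample 2.

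Mutations in the human gene of the gamma2 subunit cause an inherited heart muscle disease with glycogen storage. In these mice Prkag2 (ENSMUSG00000028944, chr5:24862744-25100642, minus strand) had 8.65, 9.86 and 5.16 TPM in Dis, against 6.39, 5.96 and 6.01 TPM in Con and 8.15, 7.17 and 8.44 TPM in NC. The Dis samples fell on both sides of the controls. Over Con, the log2 fold change was 0.30 (SE 0.20, limma adjusted p = 0.332), and it was 0.56 and passed without Dis sample 3 (limma adjusted p = 0.0245). Over NC it was -0.05 (SE 0.20, limma adjusted p = 0.885) and turned to 0.21 without Dis sample 3.

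Of the upstream kinases, neither passed the test. Stk11, which encodes LKB1 (ENSMUSG00000003068, chr10:80115803-80130682, plus strand), had 117, 130 and 106 TPM in Dis, against 104, 108 and 113 TPM in Con and 114, 102 and 117 TPM in NC. The groups overlapped. In limma the log2 fold change was 0.12 over Con (SE 0.10, 95% interval -0.10 to 0.33, limma adjusted p = 0.436) and 0.08 over NC (SE 0.10, interval -0.14 to 0.30, limma adjusted p = 0.571), and it was negative after median-ratio scaling (-0.11 and -0.16).

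Camkk2, the calcium-dependent kinase (ENSMUSG00000029471, chr5:122731170-122779409, minus strand), had 2.98, 10.02 and 2.18 TPM in Dis, against 2.41, 2.36 and 2.28 TPM in Con and 2.36, 2.18 and 1.70 TPM in NC. The high value was in Dis sample 2 alone, and the other Dis samples lay at or near the controls. The log2 fold change over Con was 0.69 (SE 0.42, limma adjusted p = 0.273), and without Dis sample 2 it was 0.10. In the same sample the 6 macrophage markers (Adgre1, Csf1r, Cd68, Cd163, Mrc1 and C1qa) summed to 162 TPM, against 18.5 and 24.7 TPM in the other Dis samples, 31.7 to 44.1 TPM in Con and 17.3 to 22.7 TPM in NC. All 6 markers were highest in Dis sample 2, and none was at 0 in every sample. Markers of 2 other cell types stood out there as well. The 3 neutrophil markers summed to 23.6 TPM in Dis sample 2, against 0 to 6.79 TPM in the other samples, with 3 of 3 highest there, and the 5 fibroblast markers to 725 TPM, against 189 to 496 TPM, with 4 of 5 highest there. The part of these cells in the Camkk2 value was not tested.

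**Figure D3:**
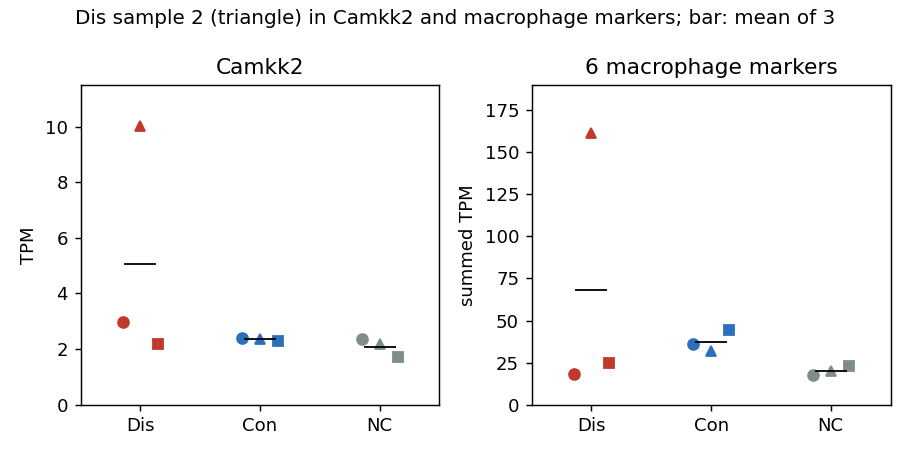
Camkk2 (left, TPM) and the sum of 6 macrophage markers (right, summed TPM) in Dis, Con and NC, axes from 0. Circle, triangle and square are samples 1, 2 and 3, and bars the mean of 3. Dis sample 2 (triangle) is highest in both panels, at 10.02 TPM for Camkk2 and 162 TPM for the markers.

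Median-ratio scaling divides every gene of a sample by the same factor, so it moves all fold changes by nearly the same amount. The order of the 9 members by fold change was therefore the same on the deposited and the median-ratio scale, which is no separate support. The sign differed for members near the shift of all genes. On the deposited scale 8 of 9 members had positive log2 fold changes over Con and 7 of 9 over NC. Without overlap between groups, 3 members were higher in Dis than in Con (Prkaa1, Prkaa2 and Prkab2) and 1 lower (Prkag1), where 30.2% of all tested genes were higher and 6.43% lower in that way. Against NC, 2 were higher (Prkaa2 and Prkab2) and 1 lower (Prkag1), where 31.3% and 6.71% of all tested genes were. After median-ratio scaling 1 member was higher (Prkaa2) and 1 lower (Prkag1) against Con, with 13.2% and 13.8% of all tested genes. Against NC it was 0 higher and 1 lower (Prkag1), with 13.7% and 14.9% of all tested genes. Dis enters both comparisons, so they are not independent of each other.

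**Figure D4:**
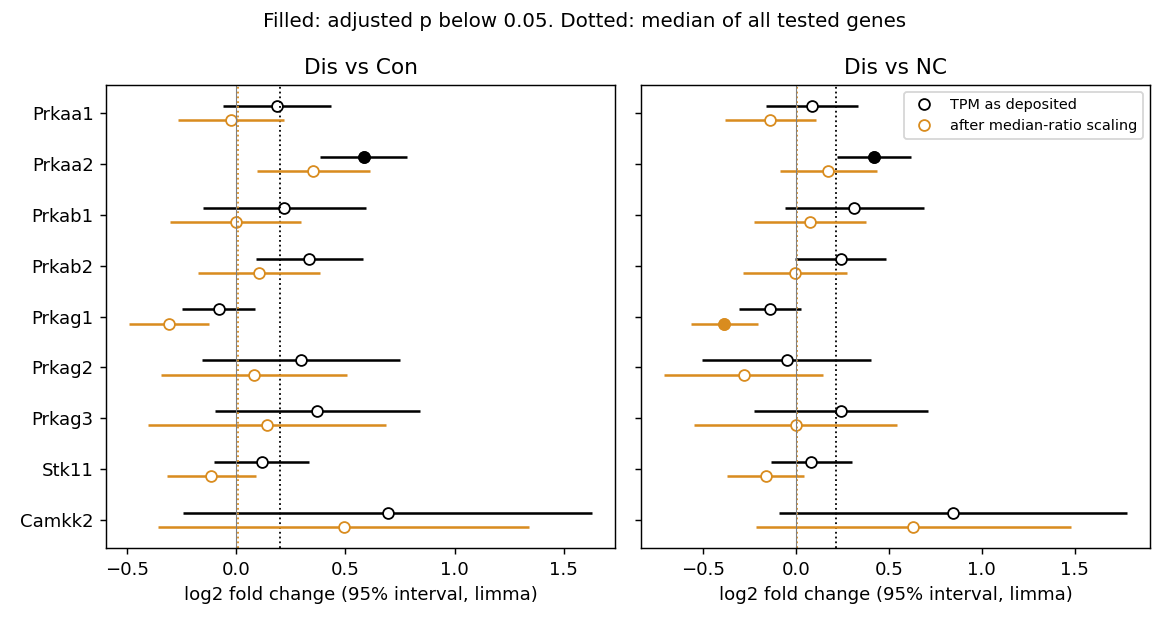
Log2 fold change of each member for Dis over Con (left) and Dis over NC (right), with the 95% interval from limma. Black is TPM as deposited and orange is after median-ratio scaling, filled points have an adjusted p below 0.05, and dotted lines mark the median of all tested genes on each scale. Prkaa2 is filled on the deposited scale (0.58 and 0.42) and not after scaling (0.35 and 0.18), and Prkag1 is filled against NC after scaling (-0.38).

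The comparison of Con with NC asks whether the free leg of an immobilized mouse is like untreated muscle. For the AMPK genes limma called 0 of 9, with 0 at an unadjusted p below 0.05, and over all genes it called 1 of 16140 (0.0062%) with 1008 at an unadjusted p below 0.05. The log2 fold changes ran from -0.34 (Prkag2, SE 0.20, limma adjusted p = 0.890) to 0.15 (Camkk2, SE 0.42, limma adjusted p = 0.983). Prkaa2 (-0.16, SE 0.09, interval -0.36 to 0.04) and Prkag2 (interval -0.80 to 0.11) were lower in every Con sample than in any NC sample. Of all tested genes, 8.11% were lower and 9.54% higher without overlap, and after median-ratio scaling, where the same members were lower, 9.24% and 8.84%. Prkag2 had 6.12 ± 0.24 TPM in Con and 7.92 ± 0.67 TPM in NC (SD, n = 3 each).

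Transcript levels of fibre-type and other cell markers also differed between samples, and these do not count fibres or cells. Myh2, the type 2A myosin, had 505 to 734 TPM in Dis, 2130 to 2610 TPM in Con and 904 to 2182 TPM in NC. It was called lower in Dis against Con and against NC. The 6 slow-fibre markers summed to 896 to 2638 TPM in Dis, 2620 to 7893 TPM in Con and 3181 to 6879 TPM in NC. Of these, 3 of 6 were called lower in Dis than in Con and 2 of 6 lower than in NC. Of the fast-fibre markers, 1 of 6 was called higher in Dis than in Con and 1 of 6 higher than in NC. The 4 satellite cell markers summed to 23.3 to 38.6 TPM in Dis, 13.4 to 16.8 TPM in Con and 13.7 to 17.1 TPM in NC, with no overlap of Dis and the controls and 1 of 4 called higher in each comparison. Against Con, 2 of 4 Schwann cell markers (104 to 289 TPM in Dis, 41.5 to 111 TPM in Con, 70.4 to 127 TPM in NC) and 1 of 5 endothelial markers (130 to 161 TPM in Dis, 116 to 118 TPM in Con, 111 to 157 TPM in NC) were also called higher. Against NC, 0 Schwann cell markers were called, and of the 5 endothelial markers 0 were called higher and 1 lower. These marker calls were made on the deposited scale. There 14.1% of all tested genes were called higher and 3.08% lower against Con, and 13.6% and 2.99% against NC. Whether fibre makeup or these cells had a part in the Prkaa2 and Prkag1 values was not tested. Over the 9 samples, the genes of at least 5 TPM whose log2 levels followed Prkaa2 most closely were Pcgf3 (Pearson r = 0.99), Tprgl (0.98) and Gm16124 (0.98), out of 8414 compared. Pcgf3, a Polycomb group RING finger gene, averaged 18.04 TPM in Dis, 11.9 TPM in Con and 13.2 TPM in NC. Of the 7 other members of at least 5 TPM (all but Camkk2), Prkab2 (r = 0.72) was the most like Prkaa2 and Prkag1 (r = -0.56) ran opposite. These correlations are descriptions over 9 points that share the group difference and the scaling of each sample.

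Around AMPK, 68 genes of its upstream partners, related kinases, regulators, fuel enzymes and substrates were set in 7 lists, and 66 passed the filter (Brsk2 and Ppm1e did not). In Dis against Con 12 were called higher and 2 lower, beside 14.1% and 3.08% of all tested genes, with a median log2 fold change of 0.13, below that of all genes. In Dis against NC 10 were higher and 2 lower (median 0.17), beside 13.6% and 2.99% of all tested genes, and in Con against NC limma called 0. After median-ratio scaling there were 3 higher and 3 lower against Con (2.67% and 4.65% of all tested genes), and 3 higher and 6 lower against NC (3.43% and 5.56%). The counts by list below are to be read against these shares. In each comparison 4 of the calls stood whichever single sample was left out and after scaling: Sik1, Tbc1d1 and Hdac4 higher in both, Ppm1b lower against Con, and Adk lower against NC.

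Upstream of AMPK, 1 of 6 genes of the LKB1 complex and the other upstream kinases was called. Strada, the pseudokinase that activates LKB1, averaged 14.6 ± 1.63 TPM in Dis, 10.5 ± 0.85 TPM in Con and 10.05 ± 1.04 TPM in NC (SD, n = 3 each), with a log2 fold change over Con of 0.46 (SE 0.12, limma adjusted p = 0.0328). After median-ratio scaling it was 0.23 (limma adjusted p = 0.368), and the call was lost when any 1 of 5 samples was left out (Con 1, 2 or 3, Dis 1 or NC 1). Of 11 tested AMPK-related kinases, which LKB1 also phosphorylates, 2 were called. Sik1, a salt-inducible kinase, had 29.6, 40.3 and 39.3 TPM in Dis, against 14.3, 17.9 and 19.7 TPM in Con and 22.2, 20.7 and 14.4 TPM in NC. Dis did not overlap either control, and the log2 fold change was 1.05 over Con (SE 0.19, limma adjusted p = 0.0102) and 0.92 over NC (SE 0.19, limma adjusted p = 0.0142). Its relative Sik3 had 0.46 over Con (SE 0.13, limma adjusted p = 0.0370), and lost the call after scaling (0.23, limma adjusted p = 0.261) and when any 1 of 6 samples was left out (Con 1 or 3, Dis 2 or 3, NC 1 or 3).

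Of 12 tested phosphatases and regulators of AMPK, 1 was called. Ppm1b, a phosphatase of the PP2C family, had 73.3, 86.1 and 82.2 TPM in Dis, against 123, 142 and 121 TPM in Con and 106, 130 and 108 TPM in NC. It fell in Dis, by 0.67 on the log2 scale against Con (SE 0.11, limma adjusted p = 0.00752) and by 0.50 against NC (SE 0.11, limma adjusted p = 0.0184), and without NC sample 2 the call against NC was lost (limma adjusted p = 0.0589). After median-ratio scaling Lamtor1, which anchors AMPK and mTORC1 regulation at the lysosome, was also called lower against Con (-0.37, limma adjusted p = 0.0213).

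Of 11 genes that handle adenine nucleotides, the signal AMPK senses, 1 was called. Adk, adenosine kinase, which makes AMP from adenosine, had 37.3, 29.9 and 35.4 TPM in Dis, against 53.9, 49.8 and 47.1 TPM in Con and 56.5, 63.6 and 53.5 TPM in NC. Dis did not overlap either control. The log2 fold change was -0.55 over Con (SE 0.11, limma adjusted p = 0.0133) and -0.75 over NC (SE 0.11, limma adjusted p = 0.00494), and without Con sample 1 the call against Con was lost (limma adjusted p = 0.0591). After median-ratio scaling the adenylate kinase genes Ak1 (-0.57, limma adjusted p = 0.0291) and Ak3 (-0.40, limma adjusted p = 0.0300) were also called lower against NC.

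Among 12 AMPK substrates of lipid and glucose metabolism, 3 were called higher against Con, where 14.1% of all tested genes were. Tbc1d1, a Rab GTPase-activating protein that gates movement of the GLUT4 glucose transporter, had 23.0, 24.2 and 34.8 TPM in Dis, against 13.3, 11.1 and 11.8 TPM in Con and 9.09, 11.1 and 9.83 TPM in NC. Every Dis sample was above every control sample, and the log2 fold change was 1.13 over Con (SE 0.16, limma adjusted p = 0.00471) and 1.39 over NC (SE 0.16, limma adjusted p = 0.00318). The CREB coactivators Crtc3 (0.59, limma adjusted p = 0.0265) and Crtc2 (0.54, limma adjusted p = 0.0124) were called against Con on the deposited scale, and neither was after median-ratio scaling (limma adjusted p = 0.0889 and 0.0923). Crtc3 also lost the call when any 1 Con sample was left out, and Crtc2 without Con sample 1. Against NC, Tbc1d1, Crtc2 and Mlycd, the malonyl-CoA decarboxylase that relieves the block on fat entry into mitochondria (0.51, SE 0.14, limma adjusted p = 0.0334), made up the 3 calls. The Mlycd call was lost after scaling (limma adjusted p = 0.194) and when any 1 Con sample, NC sample 1 or NC sample 3 was left out, and the Crtc2 call after scaling (limma adjusted p = 0.154) and without NC sample 1 or 3.

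Of 8 substrates that control growth, autophagy and mitochondrial shape, 4 were called higher against Con, where 14.1% of all tested genes were: Ulk1, the kinase that starts autophagy (0.67, limma adjusted p = 0.0444), Pik3c3, the lipid kinase of the same pathway (0.47, limma adjusted p = 0.0242), Tsc2, the brake on mTORC1 (0.43, limma adjusted p = 0.0160), and Mff, the mitochondrial fission factor (0.34, limma adjusted p = 0.0297). Ulk1 averaged 64.0 ± 21.5 TPM in Dis, 38.8 ± 4.51 TPM in Con and 42.4 ± 2.61 TPM in NC (SD, n = 3 each), and its highest value was in Dis sample 2 (88.8 TPM). After median-ratio scaling none of the 4 passed in limma, with adjusted p between 0.142 and 0.617. Ulk1 also lost the call when any 1 of the 6 control samples was left out, and Mff with any 1 of 7 (Con 1, 2 or 3, Dis 1 or 3, NC 1 or 3). Pik3c3 lost it with any 1 Con sample left out, and Tsc2 without Con sample 1 or 3. Against NC, Ulk1 (0.54, limma adjusted p = 0.0860) and Mff (0.24, limma adjusted p = 0.0877) did not pass, and the 3 calls were Tsc2 (0.46, limma adjusted p = 0.0122), Pik3c3 (0.40, limma adjusted p = 0.0413) and Becn1, a partner of Pik3c3 in autophagy (0.32, limma adjusted p = 0.0353). After scaling limma called none of these 3 against NC (adjusted p between 0.217 and 0.609). Tsc2 lost the call without NC sample 1, Pik3c3 when any 1 sample but Dis 3 was left out, and Becn1 with any 1 of 6 (Con 1 or 2, Dis 2, NC 1, 2 or 3).

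Of 6 substrates that regulate transcription, 2 were called higher against Con, where 14.1% of all tested genes were. Hdac4, a class IIa histone deacetylase, is among the genes the study itself picked from these samples for qPCR. It had 25.3, 30.2 and 23.2 TPM in Dis, against 11.2, 12.1 and 9.05 TPM in Con and 8.91, 10.4 and 9.96 TPM in NC, and the log2 fold change over NC was 1.38 (SE 0.14, limma adjusted p = 0.00246). Tfeb, a master regulator of lysosome genes, had a log2 fold change of 0.63 over Con (SE 0.15, limma adjusted p = 0.0226), and the call was lost after scaling (limma adjusted p = 0.0850) and when Dis sample 3 or any 1 Con sample was left out. Over NC its value was 0.41 (SE 0.15, limma adjusted p = 0.0816), which did not pass. After median-ratio scaling Hdac7, of the same list, was called lower against NC (-0.38, limma adjusted p = 0.0458).

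**Figure D5:**
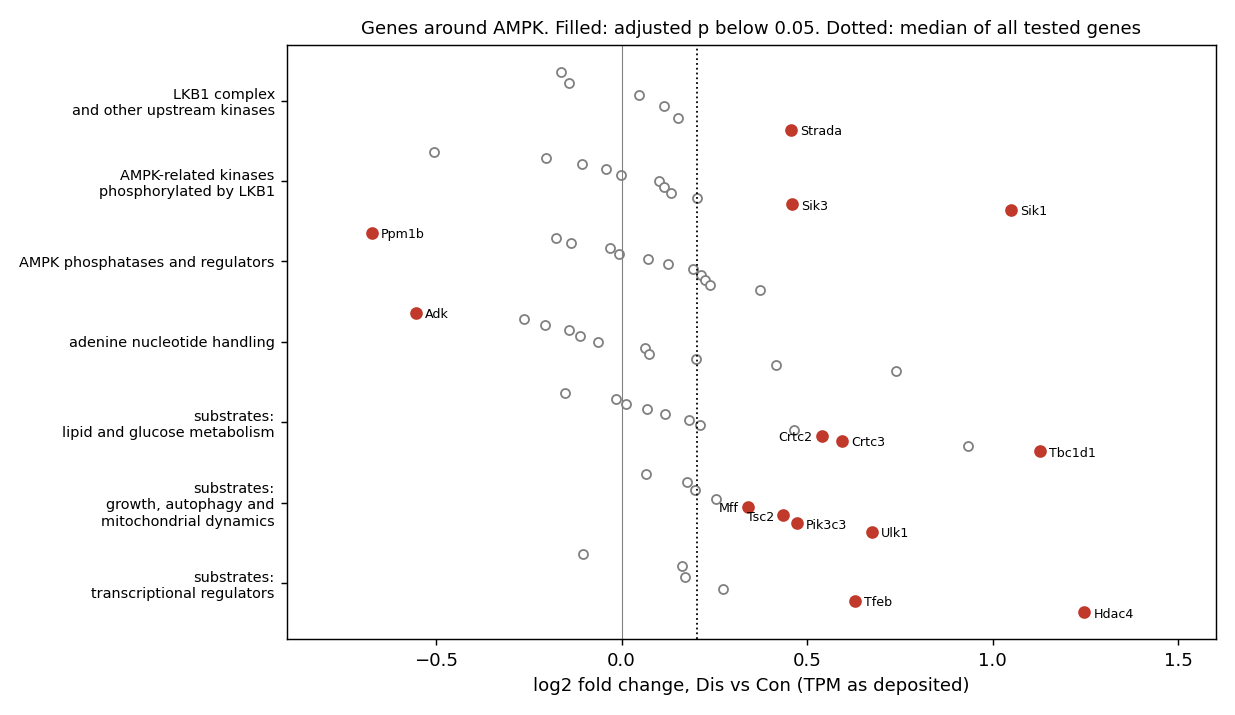
Log2 fold change of Dis over Con on the deposited scale for the 66 tested genes around AMPK, by list (rows). Red filled points have an adjusted p below 0.05, open points do not, and the dotted line marks the median of all tested genes (0.20). Hdac4 (1.25), Tbc1d1 (1.13) and Sik1 (1.05) lie farthest right, and Ppm1b (-0.67) and Adk (-0.55) farthest left.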

How the data were processed

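RNA from 9 mouse gastrocnemius samples (3 Dis, 3 Con, 3 NC) was sequenced as Illumina libraries. Per the labels and the methods, the authors demultiplexed reads with bcl2fastq 2.20, trimmed them with Trimmomatic, aligned them with HISAT2 and quantified genes with StringTie. The deposited values are TPM, 1 table per sample, scaled by the authors to the same total. TPM keeps no read totals, so depth is unknown, and neither counting error nor a floor of detection can be given. The genome build is not given in the sources used here, and 54901 of 55487 gene loci match GENCODE M21 (GRCm38), the 9 members among them. The methods name the tibialis anterior and the left leg where the labels and series text name the gastrocnemius and the right leg. The series text calls Con an immobilized leg, the sample labels a contralateral one, which was followed here. The library kit, strand-specific by the methods, is named differently in the labels.

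The stand-in value 0.0001 TPM was set to 0. Genes that reached 0.3 TPM in 3 or more samples were fitted over the 3 groups on log2(TPM + 0.5) with limma 3.58.1 (mean trend) in R 4.3.3, with Benjamini-Hochberg adjustment over all tested genes and a threshold of 0.05. Fold changes are on that log2(TPM + 0.5) scale, which makes those of low genes smaller. Means carry the SD, and shares were compared by exact permutation. The fit was tested on simulated data. Alternatives were other pseudocounts (0.1 and 1 TPM) and filters, median-ratio, quantile and mitochondria-free scaling, no mean trend, array weights, 2-group fits, a replicate term and each sample left out. Named genes are the 9 members, up to 4 genes per list called in Dis against Con with the largest change and at least 1 TPM, and the 3 genes most like each called member. Mlycd, Becn1, Lamtor1, Ak1, Ak3 and Hdac7 were named after their values were seen. The members and lists were chosen with earlier results of these data known. Sequences are from RefSeq (GRCm38.p6) and GENCODE M21. Python 3.11.15 with pandas 2.3.3, numpy 2.4.6, scipy 1.17.1 and matplotlib 3.10.9 was used. Count models need counts and were not run.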

Additional observations from a re-analysis of the deposited data

How the results depend on the processing

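Other pseudocounts, other filters, no mean trend and array weights changed no member's call or direction, and other scales of the samples did. Under median-ratio and quantile scaling, 0 members were called in Dis against Con (1 on the deposited scale), and all genes called numbered 1181 and 1192 (2770). Against NC they numbered 1451 and 1407 (2676), and 1 member was called, Prkag1 in place of Prkaa2. Without mitochondrially encoded genes or in a 2-group fit, 0 members were called against NC, and all genes called in the 2-group fits were 848 against Con and 1230 against NC. Median-ratio scaling turned Prkaa1 to -0.025, Prkab1 to -0.0029 and Stk11 to -0.11 over Con, and Prkaa1 to -0.14, Prkab2 to -0.0033, Prkag3 to -0.00029 and Stk11 to -0.16 over NC. Quantile scaling turned Prkaa1 to -0.027 and Stk11 to -0.078 over Con, and Prkaa1 to -0.15 and Stk11 to -0.14 over NC. Median-ratio scaling without Dis sample 2, chosen after seeing the data, gave 1463 genes against Con, 1261 against NC and 8 for Con against NC. It turned Prkab1 to -0.13, Prkag2 to -0.033, Stk11 to -0.12 and Camkk2 to -0.038 over Con, and Prkaa1 to -0.11, Prkab1 to -0.049 and Stk11 to -0.17 over NC. The cause was not tested.

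With single samples left out, 1 to 2 members were called against Con, with Prkab2 or Prkag2 added to Prkaa2, and 0 to 1 against NC. All genes called ran from 701 to 2908 (Dis against Con), 846 to 3103 (Dis against NC) and 1 to 8 (Con against NC, where 1 was called with all samples). Prkag2 over NC ran from -0.22 to 0.21, and for Con over NC Prkag3 ran from -0.25 to 0.015 and Stk11 from -0.090 to 0.0067. Shares of Prkab2 ran from -0.336 to 1.22 points (Dis minus Con) and from -1.22 to 0.337 points (Dis minus NC), and for Con minus NC those of Prkaa2 ran from -0.848 to 0.242 points and of Prkag3 from -2.07 to 1.28 points. For Con against NC, no filter gave 2 genes, array weights 43 and the 2-group fit 7. Of the 66 genes around AMPK, 12 were higher against Con with all samples, 3 to 13 with 1 left out and 4 in the 2-group fit, and 10 against NC, with 3 to 11 and 4.

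The labels number the samples 1 to 3 in each group, and only a Con and a Dis sample can be 2 legs of 1 mouse. The deviations of same-numbered Con and Dis samples from their group means had correlations of -0.011, -0.019 and 0.022 for numbers 1, 2 and 3. For differently numbered Con and Dis samples they ran from -0.0856 (Con 3 with Dis 1) to 0.0885 (Con 2 with Dis 1). With 3 samples in a group, such correlations cannot show whether the numbers mark pairs. Over all 9 same-numbered pairs, those with NC included, the correlations were -0.10 to 0.07. As no label links the legs of a mouse, the numbers were not taken as pairs. A replicate block by number also ties in the NC samples, which come from other mice, so it is not a test of leg pairing. With that block, 2091 genes were called against Con, 2182 against NC and 2 for Con against NC. Prkaa2 passed over Con (0.58, limma adjusted p = 0.0122) and over NC (0.42, limma adjusted p = 0.0234). The block changed no member's call.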

Other observations

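The balance between subunit classes can be read within each sample. Summed beta TPM over summed alpha TPM was 2.77, 3.10 and 2.30 in Dis, against 3.09, 3.59 and 2.85 in Con and 2.82, 3.04 and 3.12 in NC. Summed gamma over alpha TPM was 3.96, 2.84 and 2.95 in Dis, against 3.39, 4.37 and 3.85 in Con and 3.55, 3.55 and 4.18 in NC. The groups overlapped in both ratios, which were not tested. Beta and gamma transcripts were above alpha transcripts in all 9 samples. Within the gamma class, Prkag1 supplied 15.9 ± 3.65% of TPM in Dis, 20.4 ± 2.83% in Con and 19.6 ± 2.1% in NC, and Prkag2 3.26 ± 1.46% in Dis, 3.06 ± 0.56% in Con and 3.598 ± 0.21% in NC (SD, n = 3 each). Both of these shares overlapped between the groups and were not tested.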
